A study of Rattus norvegicus with 56 samples.

Results

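The transcripts described here were those of 9 inflammatory messengers in cultured rat hippocampal neurons: the chemokines Ccl2, Ccl3, Cxcl1, Cxcl10 and Cxcl12 and the cytokines Il1b, Il6, Il18 and Tnf. They were chosen by name, as the genes of the array whose RefSeq accession belongs to one of these symbols, and made up 9 of the 16481 genes that could be named on the array. Where a gene had several probes, the brightest was used. The study asked how repetitive transcranial magnetic stimulation (rTMS), a pulsed magnetic field given through a coil, changes gene expression in neurons outside the brain. Primary cultures from the hippocampus of embryonic day 18 Sprague Dawley rats, kept in Neurobasal medium with B27, received 1 Hz stimulation, intermittent theta burst stimulation (iTBS) or a sham session with the coil held away from the dish, and RNA was taken right after the session (0 h) or 2, 8, 24 or 48 h later. Untreated cultures (CTR) were taken at 0 h only.

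Each sample was hybridised to its own 1-colour Agilent array, and 55 of 56 arrays were used. The scanner software marked the spot grid of 1 array as failed (replicate 2 of 1 Hz at 2 h), and that array correlated with the others at -0.01, against 0.971 for the least alike of the other 55. The 15 groups of arm and time held 3 or 4 arrays each and 1 Hz at 2 h held 2 (16 groups in all), and their number limits the precision of every value below. On the arrays used, 66.1 to 81.8% of spots were well above background (median 72.4%) and no spot was saturated. The sample descriptions carry a running number which repeats the same order of arms and times in cycles of 18, followed by a last cycle of 15 marked D. These 4 cycles are called number series A, B, C and D here (11, 12, 17 and 15 arrays). The labels do not call them batches, and they do not say whether samples of a group came from separate cultures, so p-values measure only the spread between these samples, which may be technical. Arrays of series A lay on slides 1 and 2, those of B on slides 3 and 4, those of C on slides 5 to 7, and those of D on all 7 slides.

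Chemokines are small secreted proteins that draw cells along a gradient through G protein-coupled receptors, and the cytokines of this set set off inflammatory gene programmes in the cells that bind them. Ccl2 attracts monocytes through Ccr2, Ccl3 acts on Ccr1, Cxcl1 attracts neutrophils through Cxcr2, Cxcl10 is induced by interferons and acts on Cxcr3, and Cxcl12 acts on Cxcr4 and Ackr3 and guides migrating neurons during development. Il1b and Il18 are made as precursors and cut by inflammasome caspases, Il6 signals through Il6st and STAT3, and Tnf activates NF-kB through Tnfrsf1a. In brain cultures astrocytes are a known source of Ccl2, Cxcl1 and Cxcl10, and microglia of Ccl3, Tnf and Il1b.

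The promoters of 7 of the 9 genes were in the RefSeq sequence table used (build GRCr8; Ccl2 and Ccl3 were not). The 250 bases before the start of Cxcl1, Cxcl10 and Il6 are printed because these were the 3 windows that held an NF-kB-like run. Capitals mark matches on either strand to GGGA followed by NNTNCC (NF-kB-like, N standing for any base), to TGANTCA (AP-1-like) or to GAAA, a pair of free bases and GAAA (interferon response-like), and overlapping matches are merged.
Cxcl1 chr14:17479322-17479571 (- strand): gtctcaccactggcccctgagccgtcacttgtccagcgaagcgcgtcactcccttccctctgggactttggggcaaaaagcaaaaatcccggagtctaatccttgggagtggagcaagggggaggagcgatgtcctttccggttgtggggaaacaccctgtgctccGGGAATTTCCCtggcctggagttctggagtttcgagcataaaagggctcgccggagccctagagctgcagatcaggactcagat
Cxcl10 chr14:15988816-15989065 (+ strand): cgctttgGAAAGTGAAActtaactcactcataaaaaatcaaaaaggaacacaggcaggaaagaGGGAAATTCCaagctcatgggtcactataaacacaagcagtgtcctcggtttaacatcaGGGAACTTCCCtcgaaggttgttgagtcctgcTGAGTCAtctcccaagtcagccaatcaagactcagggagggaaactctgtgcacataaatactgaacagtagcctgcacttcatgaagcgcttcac
Il6 chr4:5894576-5894825 (- strand): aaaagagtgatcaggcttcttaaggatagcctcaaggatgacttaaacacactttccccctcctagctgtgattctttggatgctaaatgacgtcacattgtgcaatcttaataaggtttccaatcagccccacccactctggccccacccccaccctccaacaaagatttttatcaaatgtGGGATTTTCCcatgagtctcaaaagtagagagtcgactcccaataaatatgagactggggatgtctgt
In Cxcl1 the NF-kB-like run lay 84 to 75 bases before the start, with an overlapping match on the opposite strand. In Cxcl10 such runs lay 187 to 178 and 128 to 119 bases before the start, an AP-1-like run 96 to 90 and an interferon response-like run 243 to 234 bases before it. In Il6 the run lay 68 to 59 bases before the start. The windows of Cxcl12, Il18, Il1b and Tnf held none of the 3 motifs. Of 33469 rat promoters of the same length, 3.3% held the NF-kB-like run, 6.34% the AP-1-like run and 3.41% the interferon response-like run. A match describes letters only, and no binding was measured.

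Levels are given as the array's processed signal, or as a scaled level: the log2 signal after each array was centred on its mean and brought to the same standard deviation, so that 0 is an array's mean and 1 unit is close to a doubling of signal. A member was counted as measured on an array where the scanner software called its probe well above background. Cxcl12 and Il18 were measured on all 55 arrays, Ccl2 on 54, Cxcl1 on 53, Cxcl10 on 44, Ccl3 on 16, Tnf on 8, Il6 on 1 and Il1b on 0. Il1b stayed between 2.545 and 12.55 on every array, and Il6 passed background only on the iTBS 8 h replicate 2 array, at 30.8. The 7 other members passed the filter for testing (well above background on at least 3 arrays), and Il1b and Il6 were not tested.

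The members differed widely in how far they moved between arrays. Signals are as scanned, and the brightness of whole arrays differed too, with 75th percentiles from 1896 to 18416, so spans are also given on the scaled level. Ccl2 ran from 13.55 to 7554 (median 207.7), a 558-fold span and 9.23 units of scaled level. Cxcl1 ran from 5.964 to 2720 (median 98.17), a 456-fold span and 7.35 units, and Cxcl10 from 2.651 to 545.3 (median 32.63, 6.76 units). The signal of Cxcl12 ran from 447.1 to 6616 (median 1698), a 14.8-fold span that came to only 1.63 units of scaled level, and Il18 ran from 24.14 to 380.1 (median 75.28, 2.33 units). Ccl2 and Cxcl1 each had 10 spots an array, whose median coefficient of variation was 6.05% and 7.12%. Arrays of the same series and time, whatever their arm, were close to each other. For Ccl2 their scaled levels had an SD of 0.40 within a series and time, against an SD of 2.55 between the means of the 20 combinations of series and time (18 of them with more than 1 array). The same 2 SDs were 0.44 and 1.94 for Cxcl1, 0.61 and 1.67 for Cxcl10, 0.24 and 0.37 for Cxcl12, 0.31 and 0.47 for Il18, 0.89 and 1.29 for Ccl3 and 0.66 and 0.88 for Tnf.

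**Figure D1:**
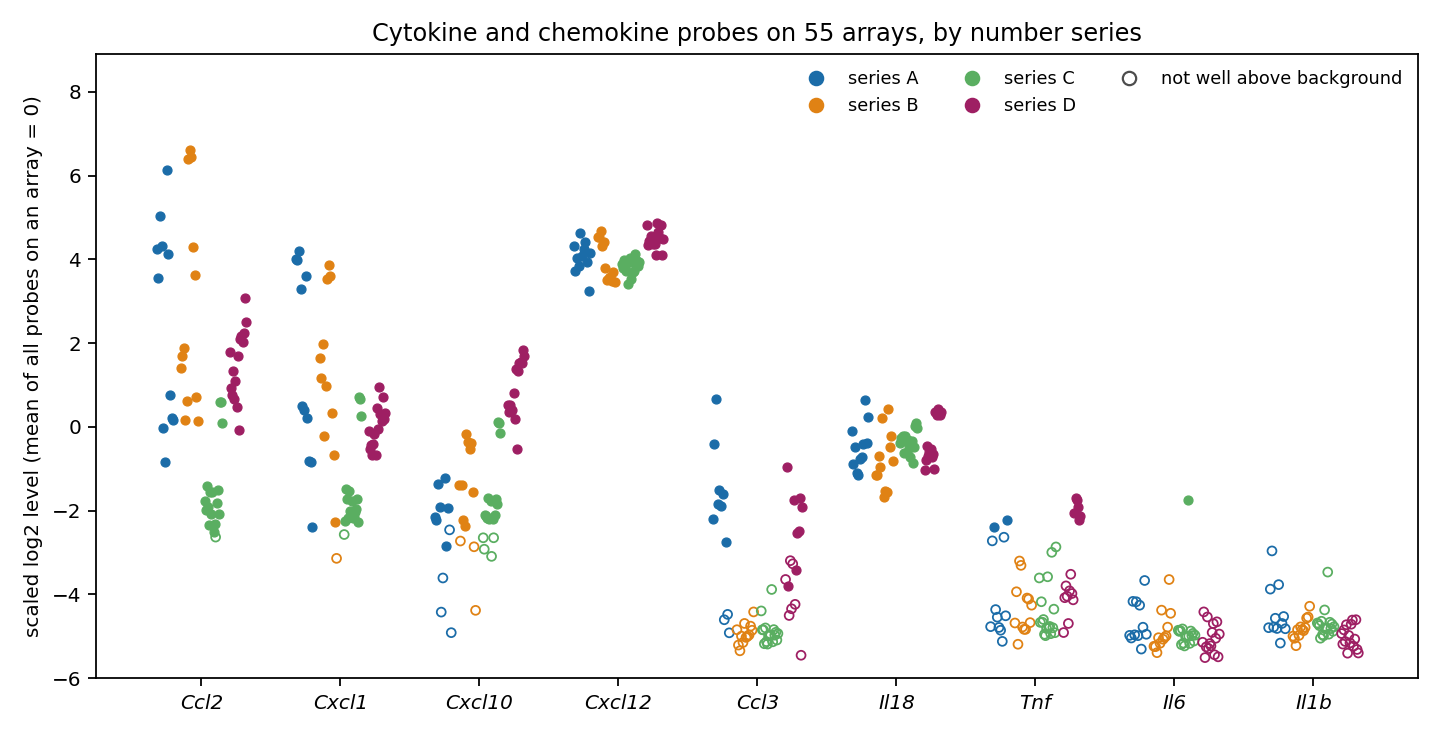
Scaled log2 level of each member on each of the 55 arrays, by number series (colours), with open circles for arrays where the probe was not well above background, and points within a series in order of time. Ccl2 and Cxcl1 spread over several units within series A and B and lie low in series C, and Cxcl10 lies highest in series D.

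Stimulation changed none of the members at the threshold used, a limma adjusted p of 0.05 over 35694 probes. Each of the 7 tested members was compared with sham at 5 times for 1 Hz and for iTBS, and 0 of these 70 comparisons passed. Over all probes, 0 to 0.0056% passed in any one of the 10 comparisons, and 0.0028% passed the joint test of both protocols at all times. The limma adjusted p of the members was at least 0.9998, and a single comparison had an unadjusted limma p under 0.05, that of Tnf after iTBS at 48 h, where 1 of 4 iTBS arrays and 2 of 3 sham arrays were above background. Over all probes, 197 to 1405 of 35694 had such an unadjusted p in any one of the 10 comparisons. Neither iTBS against 1 Hz (0 of 35) nor untreated against sham cultures at 0 h (0 of 7) gave a call by limma. In 0 of the 70 comparisons did the stimulated and sham arrays stop overlapping, against 2.64% of all probe comparisons.

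These comparisons were wide, because arrays of different series were averaged. The SE of a single comparison was 1.91 to 2.34 log2 units for Ccl2 and 1.47 to 1.80 for Cxcl1, against 0.29 to 0.36 for Cxcl12. Setting each stimulated array against the sham array of its own series and time narrowed them. With series at each time as a block, an alternative setting, the SE for Ccl2 fell to 0.29 to 0.39. No comparison passed by limma there either (lowest adjusted p = 0.209), where 0 to 0.0308% of all probes did. Of the 70, 6 had an unadjusted limma p under 0.05. Over all probes, 606 to 5794 of 35694 had one in any single comparison, so the members stood within the range of the array. Among the 6 were Cxcl1 at +0.89 and Cxcl10 at +1.21 after 1 Hz at 48 h, Ccl2 at +0.75 after iTBS at 8 h and Il18 at -0.47 after iTBS at 2 h. The others were Cxcl12 at -0.43 and Tnf, mostly below background, after iTBS at 48 h. The Cxcl10 value at 48 h came from 1 series, since 1 Hz minus sham was +2.98 in series A, where the sham signal of 3.289 was not well above background, but +0.28 in C and -0.18 in D.

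The matched pairs put limits on the mean effect of each protocol over the 5 times. Ccl2 after 1 Hz was 1.2 times its sham level (95% interval 0.959 to 1.5), and after iTBS 1.21 times (0.988 to 1.48). It was higher than the sham array in 8 of 13 pairs for 1 Hz and in 12 of 17 for iTBS, and 12 of 13 and 16 of 17 pairs lay within 1 log2 unit. The same ratios for Cxcl1 were 1.11 (0.9 to 1.37) and 1.07 (0.89 to 1.29), and for Cxcl10 1.17 (0.886 to 1.56) and 1.17 (0.909 to 1.51). For Cxcl12 they were 1.06 (0.938 to 1.21) and 0.989 (0.884 to 1.11), and for Il18 1.01 (0.854 to 1.18) and 0.933 (0.806 to 1.08). The limma adjusted p of every such mean was at least 0.9999. The intervals of Ccl2, Cxcl1, Cxcl12 and Il18 thus end at or below 1.5-fold in either protocol, while Ccl3 (0.59 to 1.65 after 1 Hz, 0.657 to 1.65 after iTBS) and Tnf (0.641 to 1.29 and 0.619 to 1.16) rest mostly on signals below background.

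**Figure D2:**
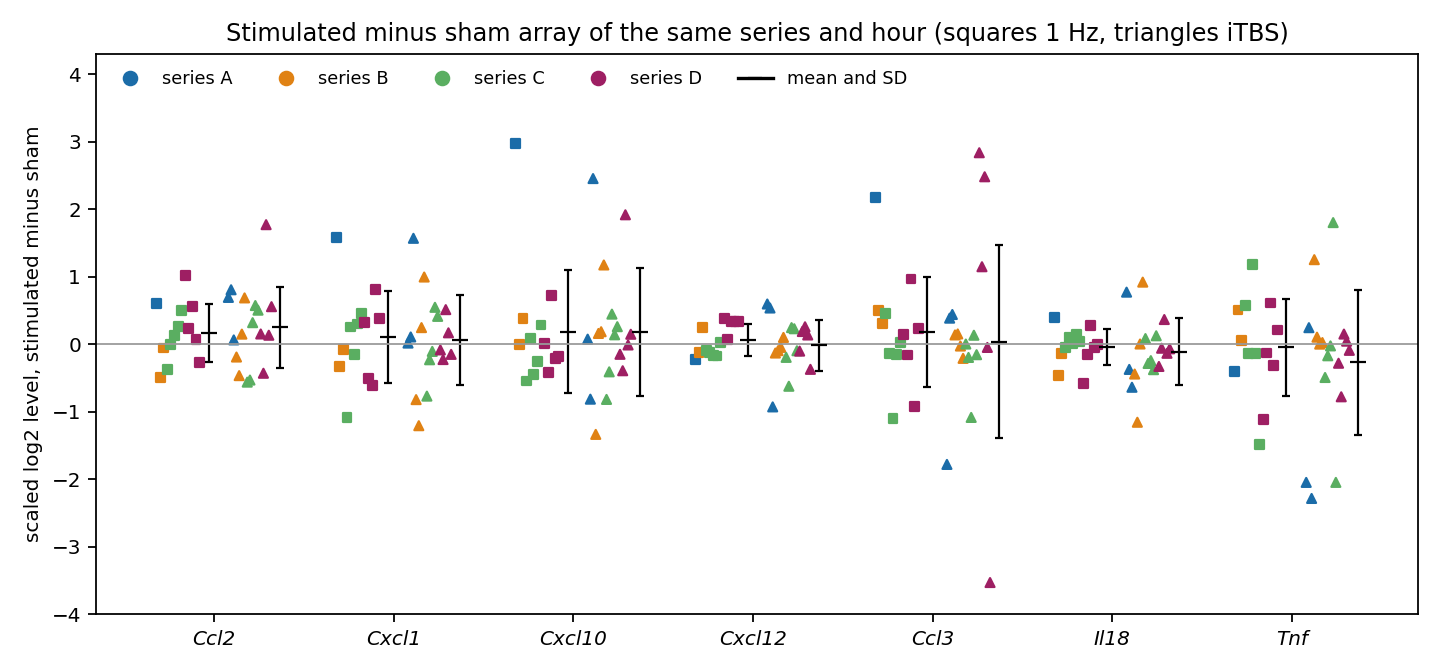
Scaled log2 level of each stimulated array minus the sham array of the same series and time, for each tested member (squares, 13 pairs for 1 Hz, triangles, 17 for iTBS, bars, mean and SD). The pairs lie on both sides of 0 for every member, and all pairs of Cxcl12 lie within 1 log2 unit.

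The number series, not the protocol, marked the large differences. All 7 tested members differed between the 4 series in a limma model with arm and time (75.4% of all probes did), so the count is close to that of the array as a whole, with limma adjusted p from 1.29e-08 for Cxcl10 to 0.0475 for Il18. The Il18 call was lost by leaving out any of 35 single arrays. Series D stood above the mean of the other 3 for 4 of 7 members (of all probes 53% differed there and 28.9% were higher): Cxcl10 by 2.98 log2 units (SE 0.34, limma adjusted p = 1.17e-09), Cxcl12 by 0.53 (SE 0.09, 1.04e-05), and Ccl3 and Tnf with limma adjusted p = 0.00646 and 0.00181. For Ccl3 and Tnf no size is given, since no array of series B or C was above background for either, and Tnf passed the filter for testing through series D. For Tnf the ratio of D to the lowest signal that passed background in B and C came to under 1, so no difference in level was bounded. Another background correction (normexp) ended both calls (limma adjusted p = 0.618 and 0.525), and Ccl3 also lost its call with slide (0.0508) or replicate number (0.149) as a block. The array of series D was the last replicate of every sham and stimulated group, so the replicate number overlaps with series D. Ccl2 and Cxcl1 differed in series C, which lay below the mean of A and B by 4.35 (SE 0.58, limma adjusted p = 1.15e-07) and 2.75 (SE 0.55, 9.37e-05). With Ccl3, which no array of C measured (0.00324), they were the 3 of 7 members that passed, all 3 lower (of all probes 40.1% passed and 19.8% were lower). Without series C, Ccl2 and Cxcl1 no longer differed between series (limma adjusted p = 0.231 and 0.277). The differences of C from A and B are averages over the times and did not hold at 48 h. At that hour the mean scaled level of Ccl2 was 0.43 in C, 0.38 in A and 0.42 in B. That of Cxcl1 was 0.54 in C, -1.35 in A and -2.70 in B, where 1 of 2 arrays was above background.

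The course over time differed between the series, for Ccl2 and Cxcl1 with a smaller p than for almost any other probe. The interaction of series and time, added after the values had been seen, passed for 6 of 7 members (41.9% of all probes). Its limma adjusted p was 1.51e-15 for Ccl2, rank 3 of 35694 probes, 1.03e-13 for Cxcl1 (rank 8), 4.96e-06 for Cxcl10 (rank 973), 0.00795 for Il18, 0.00916 for Cxcl12 and 0.0134 for Tnf. For Ccl3 it was 0.0939. With slide as a block, 3 members stayed past the threshold, namely Ccl2 (limma adjusted p = 3.13e-12), Cxcl1 (2.41e-08) and Cxcl10 (0.000448). Each of these 3 also stayed past it with any one series left out, the highest limma adjusted p being 1.81e-08 for Ccl2, 1.17e-06 for Cxcl1 and 0.0102 for Cxcl10, in all 3 cases without series C.

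Ccl2 was the clearest case. In series B at 8 h the sham array gave a signal of 5754, the 1 Hz array 5609 and the iTBS array 7554. In series C at the same hour the sham, 1 Hz and iTBS arrays gave 18.94, 18.18 and 20.68, and in series D 84.42, 132.7 and 485.7. The 1 Hz array, the only 8 h array of series A, gave 4637. At 8 h, then, the 3 arms lay close together in series B and in series C but not in D, where iTBS exceeded sham by 1.77 units of scaled level, and series A and B lay far above C and D, with every array of A and B above every array of C and D.

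At the other hours the order of the series was another. At 0 h in series A the sham array gave a Ccl2 signal of 989.8, the iTBS array 1673 and the untreated arrays 2343 and 5045. In series B at 0 h the sham, 1 Hz and iTBS arrays gave 481.5, 275.4 and 317.5, and in series D 230.9, 325.2 and 150.0. In series C the sham, 1 Hz and iTBS arrays gave 46.51, 26.34 and 24.44 and the untreated arrays 13.55 and 27.57. The 4 untreated arrays thus split by series as the treated ones did, high in series A and low in series C. At 2 h the sham and iTBS arrays of series A gave 67.62 and 52.28, those of series B 274.2 and 113.6, while sham, 1 Hz and iTBS gave 31.02, 31.12 and 21.07 in series C and 424.1, 250.5 and 207.7 in series D. Series A was thus highest at 0 h but below every array of B and D at 2 h.

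Late Ccl2 signals went separate ways again. At 24 h the 1 Hz array of series A gave 2213 and the sham and iTBS arrays of series B 689.3 and 2366, while sham, 1 Hz and iTBS gave 20.84, 24.28 and 31.94 in series C and 490.4, 937.7 and 576.5 in series D. At 48 h they gave 142.0, 175.6 and 164.6 in series C and 692.7, 868.8 and 1018 in series D. The 48 h sham, 1 Hz and iTBS arrays of series A gave 108.1, 417.5 and 105.4, and the 1 Hz and iTBS arrays of series B 134.6 and 50.44. Between the highest and lowest mean of a time within a series, Ccl2 spanned 95.9-fold in A and 68.4-fold in B (8 h over 2 h in both), 7.54-fold in C and 3.74-fold in D (48 h over 8 h in both), where 1 of the 3 arrays of series C at 8 h was not well above background. By means, the hour at which Ccl2 stood highest in A and B, 8 h, was therefore the hour at which it stood lowest in C and D. In A this rests on 1 array. In D it rests on the sham and 1 Hz arrays, since the iTBS array at 8 h stood at a scaled level of 1.70. That was above the means of D at 0 h (1.15) and 2 h (1.03).

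**Figure D3:**
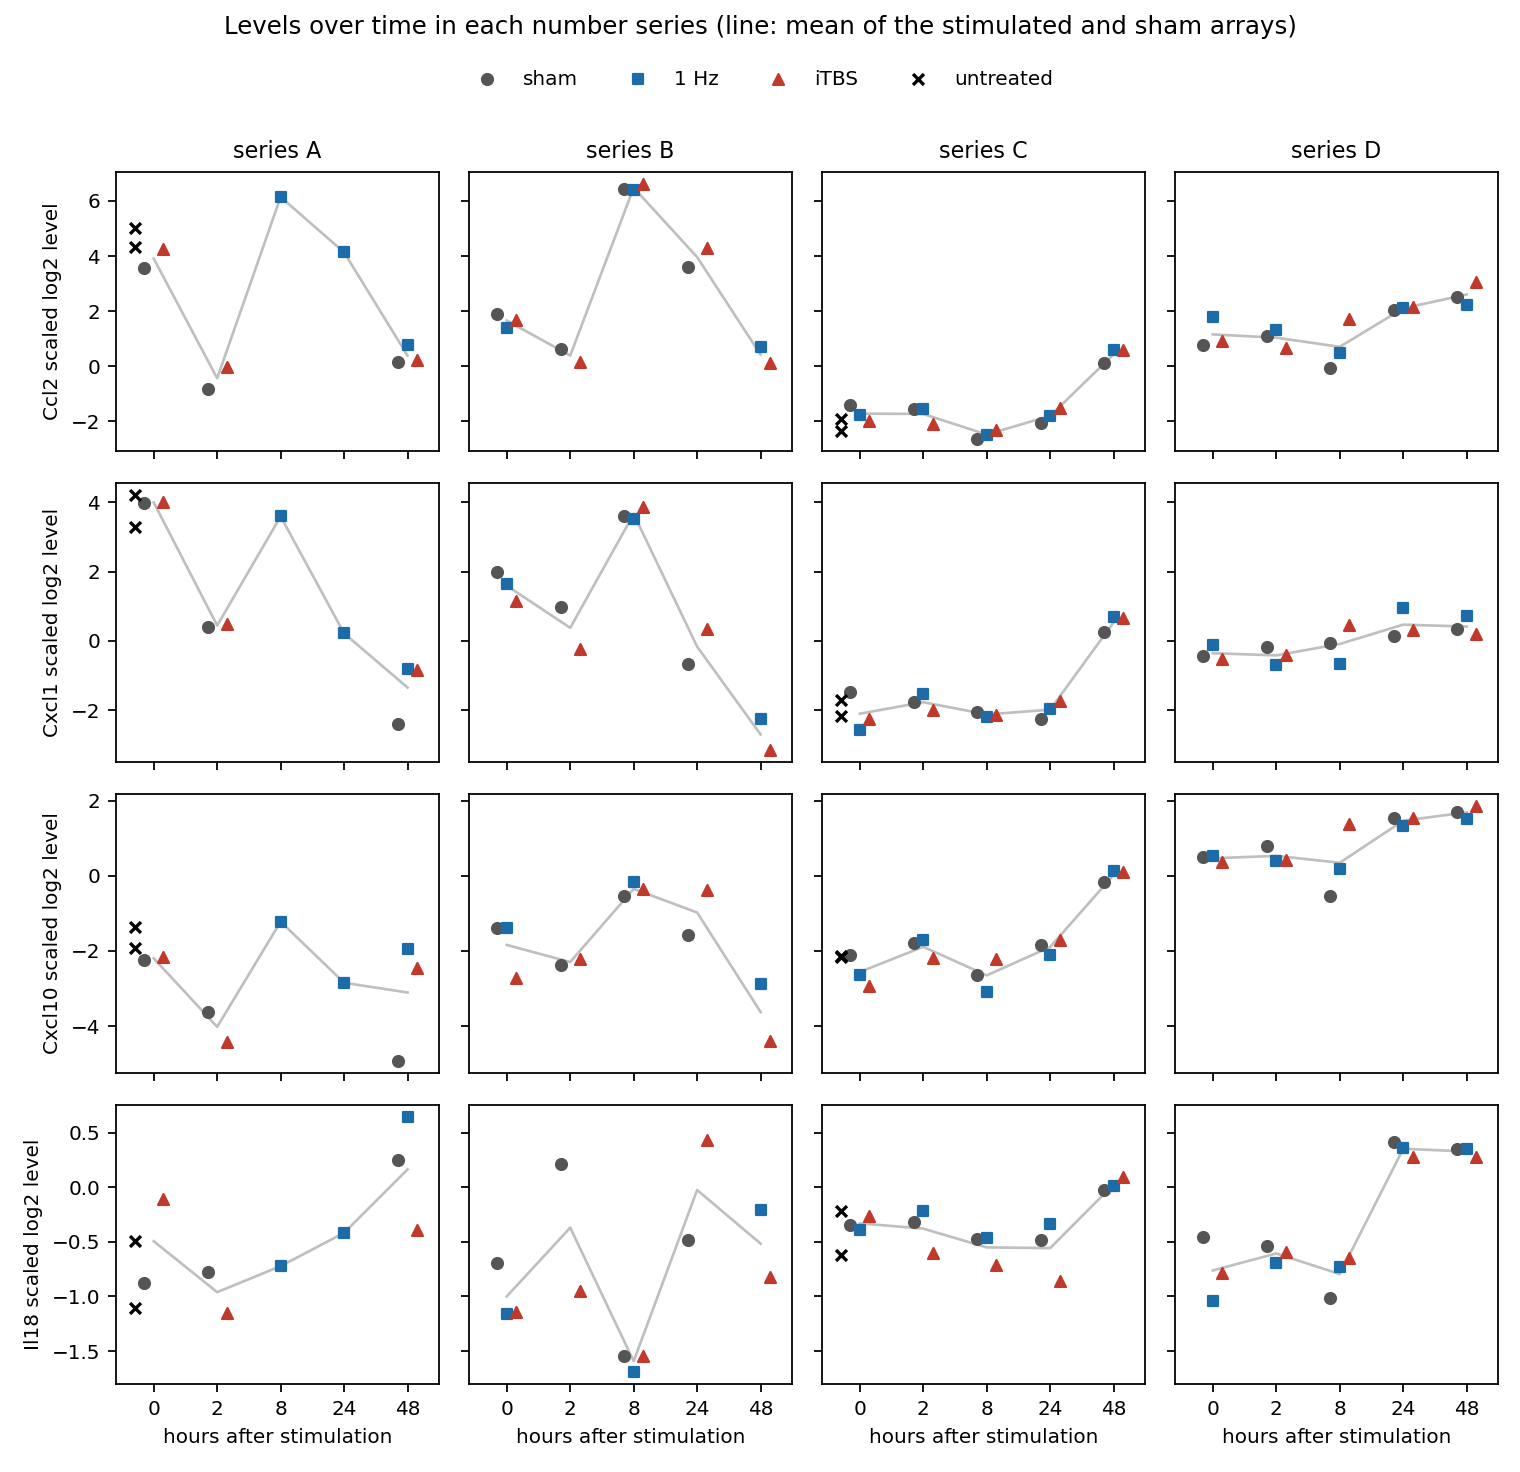
Scaled log2 level of Ccl2, Cxcl1, Cxcl10 and Il18 (rows) against hours after stimulation in each number series (columns), 1 point per array with symbols for the arms, and a line through the mean of the stimulated and sham arrays. Ccl2 stands highest at 8 h in series A and B, and Ccl2 and Cxcl1 lie low in series C until 48 h.

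Cxcl1 shared part of this course. In series A at 0 h the sham and iTBS arrays gave Cxcl1 signals of 1342 and 1416 and the untreated arrays 1133 and 2720. In series B at 8 h sham, 1 Hz and iTBS gave 896.3, 815.9 and 1170, and the 1 Hz array of series A gave 836.4. In series C the 14 arrays from 0 to 24 h lay between 15.24 and 44.24, and at 48 h sham, 1 Hz and iTBS gave 158.3, 189.8 and 171.8. Series D lay between 57.42 and 418.5 throughout. As for Ccl2, the arrays of A and B at 8 h lay above every array of C and D. Cxcl1 differed from Ccl2 late on in series B, with 40.57 and 145.7 for sham and iTBS at 24 h and 18.05 and 5.964 for 1 Hz and iTBS at 48 h, the last of them not well above background. The means of the times spanned 37.3-fold in A (0 h over 48 h), 82.8-fold in B (8 h over 48 h), 6.33-fold in C (48 h over 8 h) and 1.85-fold in D (24 h over 2 h). The span in B rests on 2 arrays at 48 h, of which only 1 was measured. Across the 55 arrays the levels of Ccl2 and Cxcl1 correlated at r = 0.85 (Spearman 0.78), and at 0.78 after the mean of each series was taken away. Within series and time, over 53 arrays, r was 0.44. The arrays share their series and slides, so these values are descriptions.

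Cxcl10 was highest in series D, where its signal ran from 62.36 to 545.3 (median 341.5), against 3.067 to 53.06 in A, 2.651 to 87.8 in B and 12.02 to 126.9 in C. Within D, sham, 1 Hz and iTBS gave 192.7, 135.9 and 103.5 at 0 h, 341.5, 130.7 and 172.7 at 2 h and 62.36, 108.1 and 387.2 at 8 h. They gave 347.6, 545.3 and 366.2 at 24 h and 398.2, 529.6 and 436.7 at 48 h. All 6 late arrays of series D thus lay above all but 1 of its 9 earlier ones. Series C showed its own late values, 118.3, 126.9 and 115.6 at 48 h, above each of its earlier arrays. Cxcl10 correlated with Ccl2 at 0.37 and with Cxcl1 at 0.29 across arrays, and at 0.80 and 0.76 with series means taken away.

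Cxcl12 was well above background on all arrays with each of its probes. Its brightest probe, which varied least, gave 1345 to 6616 in series D (median 2759), 858.2 to 4741 in A (median 1698), 447.1 to 3742 in B (median 1225) and 859.0 to 2175 in C (median 1546). On the scaled level, series D averaged 4.49 and the others 3.84 to 4.05. A pair of further probes, assigned to another RefSeq transcript of the gene, ran from 179.0 to 6053 and from 28.72 to 990.6. They followed the brightest probe at r = 0.46 and 0.68 and put series D higher by 1.31 and 1.21 log2 units. Series C against A and B stood at -0.84 and -0.95 with them and at -0.17 with the brightest probe, and their interaction of series and time passed at limma adjusted p = 7.71e-06 and 1.76e-06. The brightest probe did not pass for time, at -0.39 for 8 h (limma adjusted p = 0.129) and -0.31 for 48 h (limma adjusted p = 0.076) against 0 h, whereas 1 of the other 2 passed the joint test of time (limma adjusted p = 0.0401) and stood at +0.67 at 48 h.

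Il18 was higher late than early on average over the series, although its course differed between them. In a limma model with arm and series, 2 of 7 members passed the joint test of time, a share close to the 27% of all probes: Il18 (adjusted p = 0.000192) and Tnf (0.0337). Tnf met the filter for testing only through arrays at 24 and 48 h, so its call is no support for a change with time. Il18 was 0.71 log2 units higher at 48 h than at 0 h (SE 0.17, limma adjusted p = 0.00229) and 0.52 higher at 24 h (SE 0.18, limma adjusted p = 0.0483), while its value at 8 h was -0.29 (limma adjusted p = 0.536). The 24 h call was lost by leaving out any of 35 of the 55 arrays, and the 48 h call was lost with slide as a block (limma adjusted p = 0.0653). Of all probes, 27% passed at 48 h (13.6% higher), 14% at 24 h, 2.37% at 8 h and 0% at 2 h. Signals of Il18 at 0 h ran from 43.93 to 99.69 (median 68.75), and at 48 h from 27.12 to 380.1 (median 117.1). At 48 h the sham, 1 Hz and iTBS arrays gave 129.9, 117.1 and 115.3 in series C, 159.1, 236.4 and 147.9 in series D and 114.7, 380.1 and 68.67 in series A, and 1 Hz and iTBS gave 72.4 and 27.12 in series B. All 6 arrays of series C and D at 48 h lay above every 0 h array, and those of A and B overlapped with them. In series C the mean scaled level at 24 h (-0.56) lay below that at 0 h (-0.37). In series B at 8 h Il18 stood at 24.14 to 30.51, its lowest cell mean, at the hour at which Ccl2 stood highest.

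Tnf was above background on 8 arrays, 6 of series D and 2 of series A, and 7 of the 8 were taken at 24 or 48 h. In series D it gave 35.67 with sham, 49.51 with 1 Hz and 37.29 with iTBS at 24 h, and 29.37, 49.18 and 26.1 at 48 h. In series A the sham array at 48 h gave 20.94 and 1 untreated array 19.36. All 6 arrays of series D at 24 and 48 h therefore passed background, with sham among them, and none of the 9 earlier arrays of D did. Tnf at 48 h against 0 h passed by limma (adjusted p = 0.0445), with 4 of 11 arrays above background at 48 h and 1 of 15 at 0 h, so the size of the difference was not measured. Tnf passed the filter for testing only through its arrays at 24 and 48 h, so neither this call nor its joint test of time counts as support for a late rise. The call was lost by leaving out any of 13 arrays and under 75th percentile scaling (0.0684), quantile scaling (0.0643) or slide as a block (0.611). A second probe of the gene passed background on 1 array.

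Ccl3 was measured only in series A (8 of 11 arrays) and D (8 of 15), with 0 of 12 arrays in B and 0 of 17 in C. Its signal in A ran from 3.281 to 190.5 (median 25.07) and in D from 2.772 to 57.61 (median 13.75). The highest values, 190.5 and 60.95, came from an untreated and a sham array of series A at 0 h. Set against the lowest signal that passed background on the arrays of B and C, the mean of Ccl3 in A was 1.92-fold and 1.80-fold. In D the same ratios were 1.08 and 1.01. They set the mean of all arrays of the brighter series against, on each dim array, the dimmest signal well above background of any probe or Ccl3's own. They are not bounds on the difference, since a probe can lie above that signal and not pass. On the 1 Hz 48 h array of series A, Tnf did not pass at 31.06 while Ccl3 passed at 28.52. The limma adjusted p of A against B was 3.28e-05, in a comparison where 30.4% of all probes differed and 16.7% were higher, and Ccl3 was the 1 member of 7 to pass. With slide as a block the limma adjusted p was 0.338. Series A and B share no slide, so that setting compares them only through the arrays of D on their slides. The lost call therefore does not show that A and B were alike.

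Some markers of microglia were high in the same series as Ccl3 and others were not. Aif1 was well above background on 10 of 11 arrays of series A and 15 of 15 of D, but on 3 of 12 of B and 4 of 17 of C. C1qa passed on 10 arrays of A and 15 of D and on 0 of B and C, and Trem2 on 11, 14, 7 and 0 of A, D, B and C. Across the 55 arrays Ccl3 correlated with Tyrobp at r = 0.92 (Spearman 0.72), with C1qa at 0.89 (0.81), with Aif1 at 0.87 (0.70) and with Trem2 at 0.86 (0.65), but with Cx3cr1 at -0.47 (-0.55) and Tmem119 at 0.29 (0.18). Itgam had its lowest mean scaled level in D (-0.95) and its highest in B (0.39), P2ry12 its lowest in A (-1.81) and its highest in C (-0.57), and Cx3cr1 its lowest in D (3.83) and its highest in B (5.59). Of 11 microglial markers, 10 were matched to a probe and 3 (Cx3cr1, Itgam and Tyrobp) passed on all 55 arrays, while Csf1r passed on 7 and Ptprc on 1. Their summed linear level, which Cx3cr1 leads, ran from 21.8 to 37.9 in A, 29.5 to 95.5 in B, 24.1 to 56.7 in C and 9.05 to 36.5 in D. Since Cx3cr1 leads that sum, it does not speak for the other markers of the list. In these bulk samples fewer cells of a type and less RNA per cell cannot be told apart. The part of the microglial genes in the Ccl3 difference was not tested.

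**Figure D4:**
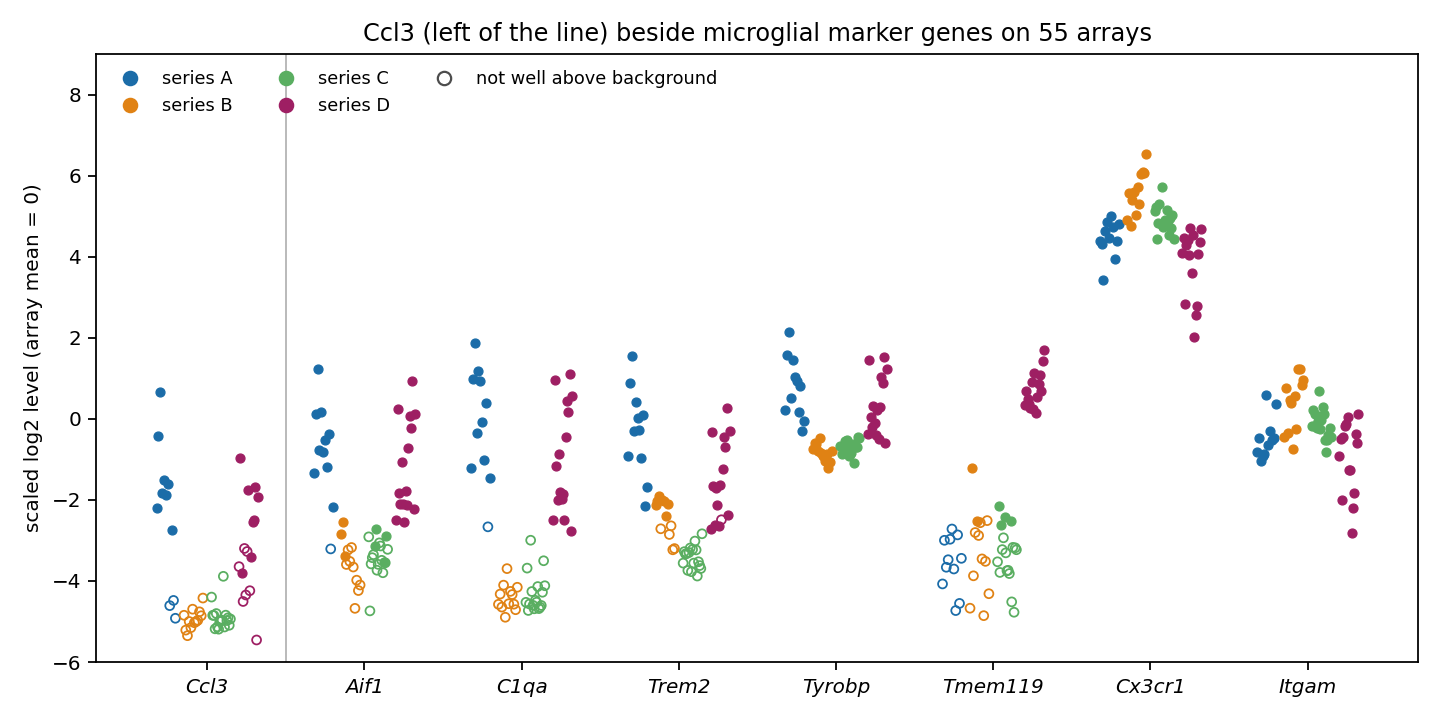
Scaled log2 level of Ccl3 (left of the line) and of 7 microglial markers on the 55 arrays, 1 point per array, by number series (colours), with open circles where the probe was not well above background. Filled points of Ccl3 and of C1qa occur only in series A and D.

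Series D also differed in other cell type markers, beside which its Cxcl10, Cxcl12 and Tnf values stand. The 8 neuronal, 8 astrocyte and 7 oligodendrocyte lineage markers passed on all 55 arrays. The summed linear level of the oligodendrocyte lineage list was 144 to 540 in D and 777 to 2730 in the others, and that of mural cell and fibroblast markers 281 to 511 in D and 30.3 to 113 in the others. Col1a1 (7.11 in D against 1.13 to 4.15) and Col1a2 (7.22 against 1.79 to 4.54) lead the latter sum in D. Lum and Acta2 were also highest in D on average. Pdgfrb (3.38 in D, 4.00 in C), Dcn (5.11 in D, 5.31 in A) and Rgs5, above background on 12 arrays, were not. Gfap, the intermediate filament of astrocytes, averaged a scaled level of 5.68 in D and 2.69 to 3.98 in the others, but the astrocyte list as a whole was mixed, with 3 of 8 higher and 3 lower in D by limma. Lower there were Aldh1l1 (3.17 against 4.45 to 4.94), Sox9 (3.80 against 4.49 to 4.94) and Slc1a3 (8.82 against 9.47 to 9.98). The neuronal list (608 to 1320 in D, 521 to 1410 elsewhere) and the astrocyte list (875 to 2050 in D, 945 to 3490 elsewhere) overlapped between series. The part of these markers in the member values was not tested.

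The receptors and partners of the members were followed in lists of 69 matched genes, 58 of them tested. None of their 580 comparisons of stimulation with sham passed by limma (5 had an unadjusted p under 0.05). Of 13 tested receptors and decoys, 6 were higher and 1 lower at 24 h than at 0 h, and 5 were higher and 1 lower at 48 h, where 14% and 27% of all probes passed. Their median difference was 0.43 log2 units at both times, against -0.03 and -0.04 over all probes. Among them Il6st, the shared signalling chain for Il6, was higher by 0.78 at 48 h, Tnfrsf1a by 0.65, and the decoy receptor Il1r2 by 0.96 at 24 h. Cxcr4, a receptor of Cxcl12, was lower by 0.84 at 24 h and 0.76 at 48 h, while Ackr3, which binds Cxcl12 too, was higher by 0.57 and 0.51. Of the receptors of the other chemokines, Ccr2 and Cxcr2 passed background on 0 arrays, Ccr1 on 1 and Cxcr3 on 2. Cxcr4, Ackr3, Il6st, Tnfrsf1a, Il18r1 and the Il18 binding protein Il18bp passed on all 55.

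In series C, in which Ccl2 and Cxcl1 were low up to 24 h, 4 of 9 tested NF-kB feedback and target genes were lower and 1 was higher than in A and B. Of all probes 40.1% passed there and 19.8% were lower. Icam1, an adhesion molecule, stood at -1.74, Nfkb1 at -0.46 and Vcam1 at +0.64. Ptgs2, the inducible cyclooxygenase, and Nos2 were called lower too, but with 0 of 17 arrays of C above background, and Nos2 on 6 of 55 in all, so that no size is given. The median of the 9 was -0.06, against -0.02 over all probes. The interaction of series and time passed for 5 of them, against 41.9% of all probes, among them Icam1 (limma adjusted p = 1.23e-09) and Birc3 (limma adjusted p = 4.54e-07). Of 13 tested other chemokines and cytokines, 4 were lower and 2 higher in C, beside the same 40.1% and 19.8% of all probes. Ccl20 at -1.98 and Il33 at +0.78 were measured on all arrays. The monocyte chemokine Ccl7 and Ccl12 were lower where 3 and 1 of 17 arrays of C were above background. The interaction passed for 8 of the 13 (41.9% of all probes), with a limma adjusted p of 6.91e-12 for Ccl7. Ccl7 signals ran from 505.9 to 716.1 in series B at 8 h, from 97.87 to 583.5 in series A at 0 h and from 3.793 to 9.602 in series C up to 24 h.

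In series D, in which Cxcl10 was high, 7 of 12 tested interferon-stimulated genes were higher and 3 lower, where 53% of all probes passed and 28.9% were higher. Their median difference was 0.68, against 0.03 over all probes. Rsad2, an antiviral enzyme measured on all arrays, was higher by 1.86. Usp18, a brake on interferon signalling, was higher by 1.13 and was above background on 15 of 15 arrays of D and 7 of 11, 8 of 12 and 11 of 17 of A, B and C. Ifit2 and Oas1a, both antiviral effectors, were called higher but mostly unmeasured outside D: Ifit2 was above background on 15 arrays of D and on 2, 0 and 4 of A, B and C, and Oas1a on 12 and on 1, 1 and 0. Ifit3, also among the 12, was above background on 3 arrays of D and 0 of A, B and C. It passed the filter for testing through D alone, so the counts and median for D include a gene that D brought in. Of the lower genes, Mx1 stood at -0.78 and the signal carrier Stat2 at -0.18. At 48 h 8 of the 12 were higher than at 0 h and none lower (median 0.79), where 27% of all probes passed and 13.6% were higher, and at 24 h 7 were higher, where 14% of all probes passed. Cxcl10 itself was not called for time. In the Toll-like receptor arm, 3 of 4 tested genes were higher in D, and Tlr2 (+1.50) and the adaptor Myd88 (+0.93) were higher at 48 h. In the STAT3 arm, 3 of 5 were higher and 1 lower in D, with the feedback inhibitor Socs3 at -1.41 and Bcl3 above background on 15 arrays of D and 1, 3 and 3 of A, B and C. Osmr, also among the 5, was above background on 6 arrays of D and 1, 0 and 0 of A, B and C, and so passed the filter through D. Of all probes, 53% differed in D. Of the inflammasome genes, 2 were tested, and Casp1 and Nlrp3 passed background on 0 arrays. Casp4 was higher in D (+1.50) and at 48 h (+0.89), and Pycard was lower at 48 h (-0.65).

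Of 12184 named genes well above background on at least 28 arrays, the one whose levels were most like those of Ccl2 across the 55 arrays was Ccl7 (r = 0.94, Spearman 0.90), followed by Ap1s3 (0.90, 0.90) and Icam1 (0.88, 0.86). Ccl7 stayed in the first 3 after series means were taken away (r = 0.93). Most like Cxcl1 were Tnfrsf12a (0.93, 0.92), Rab32 (0.89, 0.78) and Nepro (0.87, 0.78), and most like Cxcl10 were Gbp5 (0.89, 0.84), Atf5 (0.89, 0.83) and Anxa1 (0.88, 0.85). None of these 6 stayed in the first 3 with series means taken away. Cxcl12 was closest to LOC102554363 (0.86, 0.85), Alkal2 (0.82, 0.84) and Adcyap1 (0.81, 0.83). Il18 was closest to Sqor (0.80, 0.72), which stayed among the first 3 at 0.82, then to Ttc41 (0.78, 0.72) and Bbs1 (0.77, 0.68).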

How the data were processed

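Per the labels, total RNA was labelled with Cy3 and hybridised to 1-colour rat arrays. The authors scanned them with Feature Extraction 12.0.3.1 (probe design on build rn4) and deposited an intensity for each spot, of which the processed signal, already background-subtracted, was used. The authors' value table holds a score, which matched the log10 processed signal centred and scaled within each array. 

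Control spots (58717 others remained) and outlier-flagged spots were left out, spots of a probe were averaged, and 420 of 45598 probes with a missing value were dropped. The log2 signal was centred and scaled within each array and multiplied by the median SD, 4.06. Probes well above background on at least 3 of 55 arrays (35694) were fitted with limma 3.58.1 in R 4.3.3, as group means for stimulation and with arm, time and number series for time and series (residual degrees of freedom 39 and 36, prior 2.82). Benjamini-Hochberg adjustment ran over all probes. Symbols came from RefSeq accessions (21109 probes). Some list members are not reported here by name.

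Members and lists were chosen with earlier results of these data known. All members were named in every comparison. From each list up to 4 called genes with the largest changes were named, otherwise its counts and median, and from the markers the defining genes of microglia and astrocytes, with the 3 most alike genes by Pearson correlation. The Ccl7 signals, the oligodendrocyte and fibroblast sums, the single mural and fibroblast markers, Ifit3, Osmr, Casp1, Nlrp3 and the further receptors were named after their values were seen. Alternatives changed scaling, background, filter, probes, blocks and arrays. The normexp alternative used the median spot signal with offset 50, as the mean signal was not among the columns used here. On simulated data for 35694 probes, 1 Hz at 8 h with series as a block recovered 47.8%, 76.1% and 100% of shifts of 1, 2 and 4 log2 units. The simulated data held no interaction of series and time, and the main stimulation comparisons used no block. These shares therefore do not measure recovery for the main comparisons or for members such as Ccl2 and Cxcl1.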

Additional observations from a re-analysis of the deposited data

Results flagged for a closer look

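The course over time differed between the number series for 6 members, by the limma interaction of series and time, whose adjusted p was 1.51e-15 for Ccl2, 1.03e-13 for Cxcl1, 4.96e-06 for Cxcl10, 0.00795 for Il18, 0.00916 for Cxcl12 and 0.0134 for Tnf.

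In 4 of the 72 sets of 4 arrays of a group that were examined, 1 array lay far from the other 3, where chance gives about 1 in 20. Ccl2 stood at a scaled level of 2.23 on the 1 Hz 48 h array of series D against 0.59 to 0.76 on the others, and at 3.07 on the iTBS 48 h array of series D against 0.13 to 0.60. Tnf stood at -2.39 on 1 untreated array of series A against -4.67 to -4.36. Il1b stood at -3.77 on the 1 Hz 8 h array of series A against -4.98 to -4.78, and none of these Il1b signals was well above background. The cause of these values was not tested.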

How the results depend on the processing

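The counts of members called for stimulation against sham, iTBS against 1 Hz and untreated against sham were 0 under every alternative except with all 56 arrays, where 1 Hz against sham and iTBS against 1 Hz gave 2 each, Il18 (+3.64 for 1 Hz) and Cxcl12 (-2.23), both at 2 h and both from the array with the failed grid. The count for later times (2) was 1 under normexp, 1 with probes above background on at least 28 arrays, 1 with the mean of all probes of a gene, 1 without series in the model, 0 with all 56 arrays (lowest limma adjusted p = 0.179) and 0 with sham arrays alone (0.291). The count for number series (7) was 2 with sham arrays alone (Ccl2 and Cxcl10) and 4 without series C. It was 5 under normexp, 5 with all 56 arrays and 6 under 75th percentile scaling, quantile scaling or slide as a block. The count for series by time (6) was 3 with all 56 arrays and 3 with slide as a block. It was 4 without series B, 5 without series C and 5 with the mean of all probes of a gene. With probes above background on at least 28 arrays, 5 members were tested and 5 passed for each of these 2 counts. Leaving out each array in turn gave 0 to 0 for stimulation, untreated and the averaged protocols, 1 to 2 for later times, 6 to 7 for number series and 6 to 7 for series by time. The span of a member over the arrays (highest minus lowest level) under normexp was 6.70 for Ccl2, 1.95 for Ccl3, 4.40 for Cxcl1, 2.76 for Cxcl10, 0.70 for Il1b, 0.88 for Il6, 1.33 for Il18 and 0.63 for Tnf, and with the mean of all probes 3.02 for Cxcl12 and 2.08 for Tnf. The 450 values of single members under the alternatives held signed differences and also F tests, which have no direction. Many of the F tests, such as those of stimulation, were not called to begin with. Of the 450, 391 stayed as they were, called or not called, 57 lost the call and 2 gained it. The 2 were Cxcl1 for time with slide as a block (limma adjusted p = 0.0096) and Ccl3 for series by time without series D (0.00304). Of the signed differences, 0 reversed.

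The replicate numbers of the labels did not pair the samples: deviations from group means correlated at 0.16 between same-numbered and -0.06 between other samples, and 57.6% of same-numbered pairs were over 0.1. With the replicate number as a block, members called were 0 for 1 Hz, 0 for iTBS, 0 for iTBS against 1 Hz, 0 for untreated against sham, 2 for later times and 7 for number series. The calls lost were series D for Ccl3 (limma adjusted p = 0.149) and 24 h for Il18 (0.42, limma adjusted p = 0.136). Signals close to background limit Ccl3, Tnf, Il6 and Il1b, and several of their differences shrank under normexp.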
